A study of Mus musculus with 18 samples.

Results

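The GATA6-only Early regions are the 2278 GATA6 binding regions, of 42403 in the deposited table, that GATA6 occupied from the beginning of induction and kept while no other mapped factor was called there. They were chosen by 3 classes that the authors had set from binding: the GATA6 time course class Early&Constant (Early below), no peak at any time point of OCT4, SOX2 or ESRRB, which the study groups as pluripotency transcription factors (PTFs), and no SOX17 peak. They made up 5.37% of all regions, 19.2% of the 11875 Early regions and 53.2% of the 4279 Early regions without PTFs. The series itself holds 18 MNase-seq libraries of KH2 mouse embryonic stem (ES) cells of C57BL/6 x 129/Sv origin that carry a doxycycline-inducible Gata6 cassette, grown with LIF on inactivated feeder cells. The libraries are 3 replicates each of untreated cells (d0) and of cells after 8, 16, 24, 48 and 96 h of 1 ug/mL doxycycline (Dox), and every group carries the cassette. The cell lines are single clones picked after selection, as the study's methods describe. The columns used here give classes, motif positions and motif scores of the regions, and hold no value of an MNase library. Regions are therefore the units throughout, the columns give no depth for the libraries behind the classes, and no comparison between libraries was made.

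GATA6 is a zinc finger transcription factor that drives ES cells towards primitive endoderm (PrE), the extraembryonic lineage that forms the yolk sac. GATA factors read a short DNA word with the core GATA, preferentially flanked as AGATAA, and can bind it on DNA that is wrapped in nucleosomes. SOX17 is an endoderm factor that is switched on downstream of GATA6, and OCT4 and SOX2 bind together to a composite motif in pluripotent cells. Whether a region with GATA6 alone differs in DNA sequence or in its starting chromatin from one that GATA6 shares with SOX17, or that GATA6 holds only late or only briefly, is the question that the classes allow.

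The 6 GATA6-only Early regions with the highest GATA6 motif score within 100 bp of the summit show the motif at its closest to the matrix. The score is the log-odds match to the GATA6 matrix, and 6.23 was the lowest score recorded as a motif in any region. Bases are from GRCm38, 5′ to 3′ on the strand of the motif, with the 13 bp motif in capitals and 10 bp to each side. The intron, coding exon or intergenic place named is that of the summit. The place of the motif itself, which lies beside the summit, was not looked up and can differ.
Nln intron, chr13:104029697-104029709, plus strand: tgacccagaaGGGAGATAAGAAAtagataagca
intergenic, nearest protein-coding start Cdkn2b, chr4:89380497-89380509, plus strand: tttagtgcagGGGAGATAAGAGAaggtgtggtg
Eya4 intron, chr10:23295804-23295816, plus strand: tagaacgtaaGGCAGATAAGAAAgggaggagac
Tmem135 intron, chr7:89213415-89213427, plus strand: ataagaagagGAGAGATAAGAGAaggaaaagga
intergenic, nearest protein-coding start Mrps36, chr13:100748675-100748687, minus strand: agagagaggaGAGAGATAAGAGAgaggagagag
Slc28a1 coding exon, chr7:81124847-81124859, minus strand: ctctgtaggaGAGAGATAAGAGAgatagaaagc
All 6 contain AGATAAGA, 5 of them were closed at d0 and the Mrps36-side region was moderately accessible. Their scores lay between 15.1 and 15.2, and their motif centres lay 8 to 29 bp from the summit. The Nln region, with a score of 15.2 in the window and 6 motifs recorded over its 1096 bp, has its best motif beside another, as the whole window of 100 bp to each side of the summit shows (plus strand, all bases of GATA6 motifs on either strand in capitals).
Nln window, chr13:104029574-104029774: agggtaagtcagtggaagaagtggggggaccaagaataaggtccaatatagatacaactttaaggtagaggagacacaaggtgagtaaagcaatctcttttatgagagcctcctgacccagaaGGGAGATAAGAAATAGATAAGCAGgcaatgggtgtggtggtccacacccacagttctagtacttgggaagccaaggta

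A small set of the GATA6-only Early regions held runs of overlapping GATA6 motifs, most of them in tandem repeats. In 42 of the 2278 regions (1.84%, 95% Wilson interval 1.37 to 2.48) the summit window (100 bp to each side of the summit) held 6 or more GATA6 motifs, with 22 as the highest number. The window below, of a region with 17 motifs, shows such a run on the plus strand with motif bases in capitals, and was added after the values were seen.
Cpne4 intron, 17 motifs, chr9:104579716-104579916: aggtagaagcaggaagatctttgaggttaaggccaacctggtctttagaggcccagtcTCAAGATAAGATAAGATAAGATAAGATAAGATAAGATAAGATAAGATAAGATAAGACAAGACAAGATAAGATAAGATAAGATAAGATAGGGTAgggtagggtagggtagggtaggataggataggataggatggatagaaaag
The Cpne4 window repeats AAGAT, which joins into AGATAAGATA and gives a best score of 13.8. Over the 42 windows the median best score was 10.5, below the 11.4 of the class, so this window was among the closer matches to the matrix. In 38 of the 42 windows the commonest step between neighbouring motif starts was 5 bp, the length of this unit. Other units of this length also occurred. Windows of 12 motifs on chromosomes 10 and X, examples picked after the values were seen, have their best motif in AGATT repeats, with scores of 9.34 and 8.17. The units were not counted over the 42 windows. All 42 were closed at d0, 37 (88.1%, 75 to 94.8) were in the histone state named naive, and none had its summit within 1 kb of a transcript start. Over the 42, the median width was 680 bp and a median of 40.6% of the window was soft-masked as repeat in the reference, where the median window of the class had 10.4%. Their mean GC content was 34.0%, against 45.5% in the class. The part of repeat content in the binding classes of these regions was not tested.

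Windows with 6 or more GATA6 motifs were rare in the classes used for comparison, which were the 2001 Early regions with SOX17 and without PTFs, the 6414 Late regions with GATA6 alone and the 8937 Transient regions with GATA6 alone. They made up 0.1999% of the Early regions with SOX17 (4 regions), 0.109% of Late regions (7) and 0.347% of Transient regions (31). Outside these classes, Early regions without SOX17 held them in 0.787% of those with PTFs at d0 (3 of 381). The share was 0.170% in those with PTFs gained during induction (1 of 589), and neither was tested. The share in GATA6-only Early regions was higher by 1.64 points (SE 0.339) than in Early regions with SOX17, by 1.74 points (SE 0.277) than in Late and by 1.497 points (SE 0.313) than in Transient regions. The adjusted p-values were 1.57e-04, 1.04e-05 and 1.67e-04 (linear model over regions, SE clustered by chromosome, a measure added after the data were seen). The direction was the same on 16, 18 and 18 of 20 chromosomes. Of the 113 regions of the whole table with 6 or more motifs, 37.2% were GATA6-only Early regions, although the highest number in a window, 27, belonged to a region outside the class. In Transient regions, 23 of the 31 such windows also had a commonest step of 5 bp. In Early regions with SOX17 this held for 1 of 4, and in Late regions for 1 of 7.

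Of the 4 classes, GATA6-only Early regions most often contained a GATA6 motif. A motif was found in 93.4% of their summit windows (2128 of 2278, 92.3 to 94.4), in 89.4% of Early regions with SOX17, in 78.7% of Late and in 84.0% of Transient regions. Windows placed 3 kb to each side of the same summits, which touched no GATA6 region, held a motif in 33.8% of GATA6-only Early regions (4356 windows, 32.4 to 35.2) and in 32.8% to 33.7% of the other classes. GATA6-only Early regions exceeded Early regions with SOX17 by 4.01 points (SE 0.755, adjusted p = 6.25e-05), Late regions by 14.7 points (SE 0.826, adjusted p = 9.78e-13) and Transient regions by 9.45 points (SE 0.746, adjusted p = 2.98e-10; linear model, n = 2278 GATA6-only Early regions). The difference had this direction on 19, 20 and 20 of 20 chromosomes. It passed in each alternative run but was smaller in some, at 2.61 points from Early regions with SOX17 and 4.35 points from Transient regions among closed regions, and at 1.68 and 5.49 points over whole regions.

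**Figure D1:**
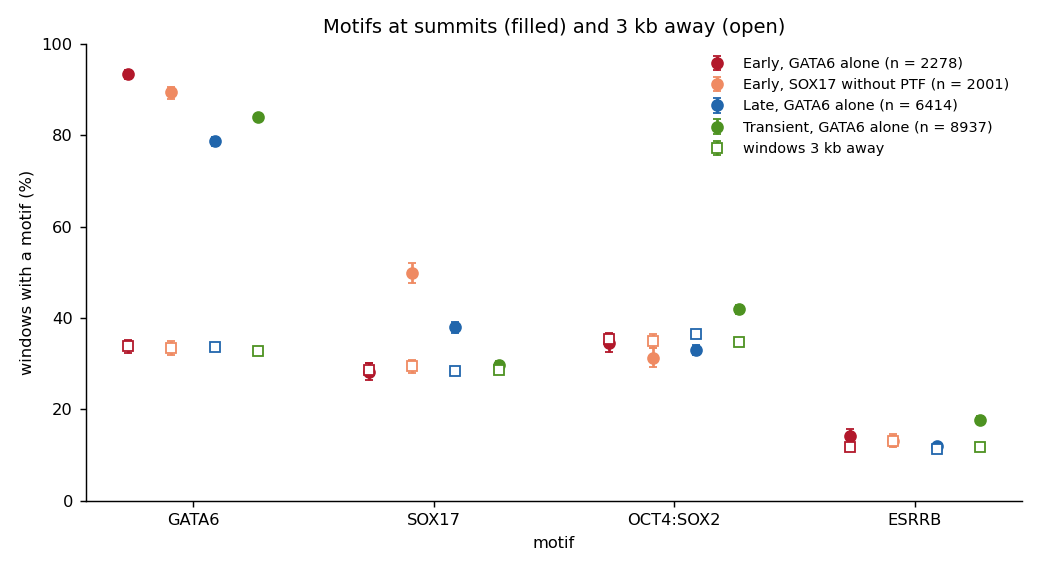
Share of summit windows (100 bp to each side of the summit) with a motif (percent), for 4 motifs (horizontal axis) and 4 classes of region (colours), with filled circles for windows on GATA6 summits, open squares for windows 3 kb away and bars for 95% Wilson intervals. The GATA6 motif stood at 93.4% in GATA6-only Early regions, while their SOX17 and OCT4:SOX2 shares lay on those of the windows 3 kb away.

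The motifs were also more numerous and closer to the matrix. A window of a GATA6-only Early region held 2.06 GATA6 motifs on average (SD 1.55), against 1.69 in Early regions with SOX17, 1.36 in Late and 1.38 in Transient regions, with differences of 0.37 (SE 0.032), 0.71 (SE 0.028) and 0.68 (SE 0.027) and adjusted p-values of 9.20e-10, 1.68e-15 and 1.68e-15 (linear model, a measure added after the data were seen). At least 2 motifs were present in 62.7% of GATA6-only Early windows (60.7 to 64.7) and at least 3 in 28.1% (26.2 to 29.9), where the other classes reached 11.5% to 19.3%. Where a motif was present, the best score averaged 11.25 (SD 2.32, n = 2128), which was 0.35 higher than in Early regions with SOX17 (SE 0.096, adjusted p = 0.00232), 1.36 higher than in Late regions (SE 0.039, adjusted p = 1.05e-17) and 0.46 higher than in Transient regions (SE 0.049, adjusted p = 2.64e-08; linear model). In the same order, the score was higher in GATA6-only Early regions on 14, 20 and 19 of 20 chromosomes. The SD of the score within a class was larger than each of these differences in means, and the distributions overlapped widely. Among closed regions the score difference from Transient regions was 0.23 (SE 0.055). Leaving out the windows with 6 or more motifs changed no call among the 39 main tests of the classes. Those tests include the best score. The number of motifs per window and the share with at least 3 were not tested without these windows. GC content moved with the class, at 45.5% in GATA6-only Early windows against 46.2% in Early regions with SOX17, 44.6% in Late and 47.7% in Transient regions (adjusted p = 0.00103, 2.36e-05 and 2.98e-10, linear model, n = 2278), and its part in the motif differences was not tested.

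**Figure D2:**
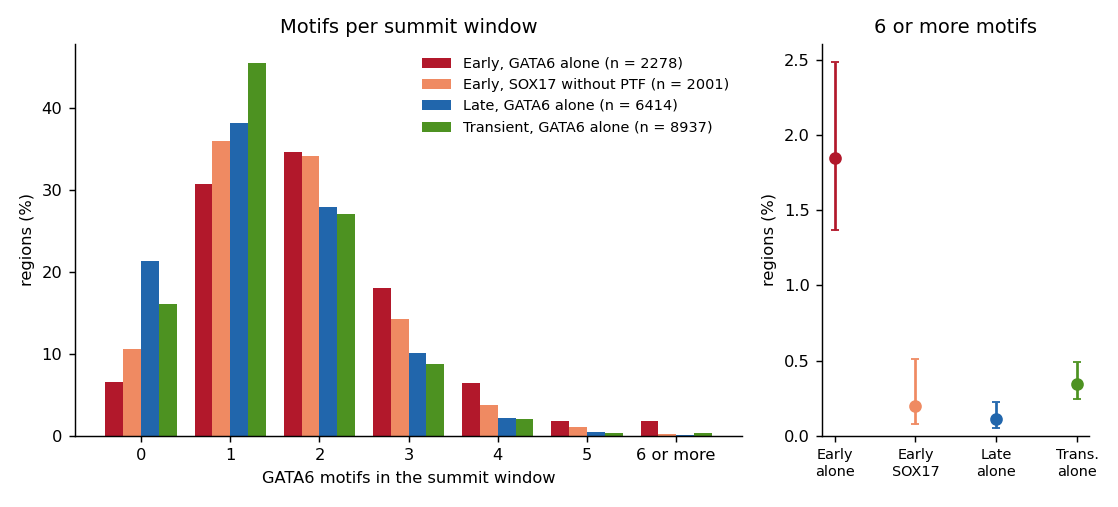
Left, share of regions (percent) by the number of GATA6 motifs in the summit window in 4 classes. Right, the share with 6 or more motifs and its 95% Wilson interval, 1.84% in GATA6-only Early regions and 0.109% to 0.347% in the others.

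The longer words behind the score followed the same order of classes as the motif, while the shorter ones did not. Each word was searched on both strands of the summit window, the longer words contain the shorter ones, and the shares are given as a description. The core GATA was present in 98.6% of GATA6-only Early windows and in 92.9% of all 42403, with 95.7% in Late and 95.3% in Transient regions. AGATAA was present in 75.5% (73.7 to 77.2), against 68.7% of Early regions with SOX17, 53.4% of Late, 61.9% of Transient and 54.3% of all regions. AGATAAG was present in 49.3% of GATA6-only Early windows and 27.9% of all. For the longest word searched, AGATAAGA, the shares were 23.4% of GATA6-only Early windows (21.7 to 25.2), 18.4% of Early regions with SOX17, 9.79% of Late, 17.5% of Transient and 12.3% of all regions. GATT was present in 77.0% of GATA6-only Early windows and 78.13% of all.

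No single sequence stood for the class. The best motifs that the authors recorded, read from the genome at their full 13 bp for 2207 regions, came as 1766 different sequences, and 1442 of these occurred once. At position 10 of the motif, the base after AGATAA when positions are counted from 1 at its 5′ end, G made up 82.1% of the best motifs of GATA6-only Early regions, 79.2% in Early regions with SOX17, 70.7% in Late and 76.5% in Transient regions. The commonest sequence is the tandem unit seen above, and the next ones carry AGATAAGA.
14 regions, score 13.8: ATAAGATAAGATA
7 regions, score 14.7: CTGAGATAAGAAA
6 regions, score 15.0: AAGAGATAAGAAA
6 regions, score 14.3: CTGAGATAAGATA
6 regions, score 14.2: GAAAGATAAGATA
5 regions, score 14.5: CAAAGATAAGAGA
The sequence with 14 occurrences was the best motif of 0 Early regions with SOX17, 2 Late and 12 Transient regions, and the sequence with 7 occurrences of 1, 1 and 7.

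GATA6 motifs of GATA6-only Early regions were concentrated at the summit, the base of highest GATA6 signal. Counted in bins of 10 bp, they peaked at 18.04 motifs per 100 regions, in the bin centred at -10 bp, and fell to 2.42 per 100 regions at 400 bp and more from the summit. The peaks were 14.6 in Early regions with SOX17, 11.2 in Late and 11.6 in Transient regions, over flanks of 2.24 to 2.38. Among windows with a motif, the best one had its centre within 25 bp of the summit in 47.2% of GATA6-only Early regions (45.1 to 49.4). That was 5.58 points more than in Late regions (n = 2128 and 5050 windows with a motif, SE 1.11, adjusted p = 1.34e-04) and 3.25 points more than in Transient regions (SE 0.795, adjusted p = 7.88e-04). The difference from Early regions with SOX17 was 0.94 points, with a 95% interval from -2.16 to 4.05 (linear model, a measure added after the data were seen).

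**Figure D3:**
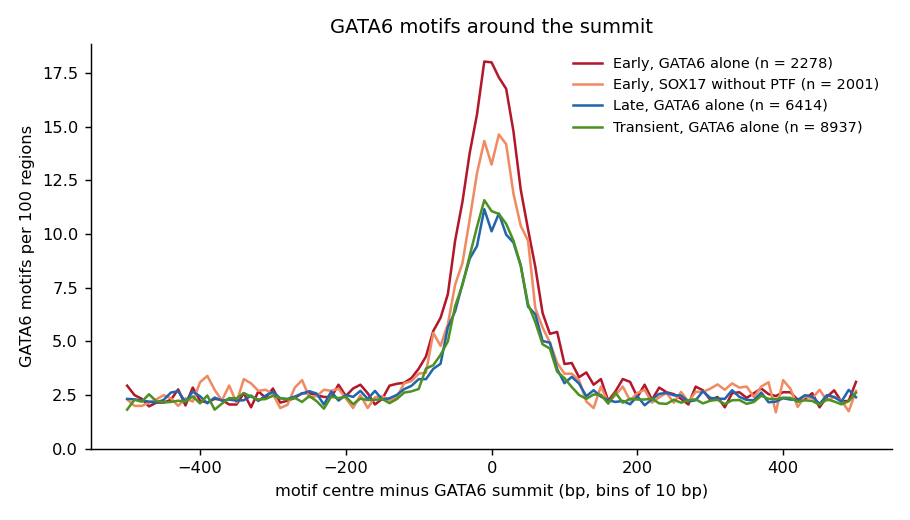
GATA6 motifs per 100 regions (vertical axis) against the distance of the motif centre from the GATA6 summit in bp (horizontal axis, bins of 10 bp), with 1 line per class. The line of the GATA6-only Early regions is highest at the summit, at 18.04, and all 4 lines run together in the flanks.

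SOX17 and OCT4:SOX2 motifs were about as frequent in GATA6-only Early regions as in the surrounding DNA. The windows 3 kb away differed in composition, with 28.9% soft-masked bases and 43.5% GC on average, against 17.2% and 45.5% in the summit windows, and the part of this in the comparison was not tested. A SOX17 motif was present in 28.3% of GATA6-only Early windows (26.5 to 30.2) and in 28.7% of the windows 3 kb away, a difference of -0.47 points (SE 1.66, adjusted p = 0.831, linear model, n = 2278 and 4356 windows). In Early regions with SOX17 the motif was present in 49.8% of windows, 20.4 points above the windows 3 kb away (n = 2001 and 3789, SE 1.43, adjusted p = 3.53e-11). Late regions, also without a SOX17 peak, held it in 38.0%, 9.59 points above their surroundings (n = 6414 and 12323, SE 0.745, adjusted p = 1.80e-10). GATA6-only Early regions thus differed by -21.6 points from Early regions with SOX17 (SE 1.83, adjusted p = 8.03e-10) and by -9.72 points from Late regions (SE 1.17, adjusted p = 1.91e-07; linear model, n = 2278). From Transient regions they differed by -1.45 points, with a 95% interval from -3.69 to 0.79. Over whole regions instead of summit windows, the comparison with Late regions turned to 3.59 points more and that with Transient regions to 3.41 points more in GATA6-only Early regions. Whole regions differ in width between the classes, with a mean of 542 bp in GATA6-only Early, 657 bp in Early with SOX17, 380 bp in Late and 496 bp in Transient regions.

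The composite OCT4:SOX2 motif was present in 34.5% of GATA6-only Early windows (32.5 to 36.4) and in 35.3% of the windows 3 kb away (difference -0.87 points, SE 1.09, adjusted p = 0.498, linear model, n = 2278 and 4356). Transient regions, although also without a PTF peak, held it in 41.9%, from which GATA6-only Early regions differed by -7.47 points (SE 0.987, adjusted p = 7.08e-07, linear model, n = 2278 and 8937). This difference was -11.6 points among closed regions, and over whole regions it was -0.84 points and no longer passed (adjusted p = 0.327, n = 2278). The differences from Early regions with SOX17 (3.13 points, interval -0.61 to 6.86) and from Late regions (1.42 points, interval -0.97 to 3.81) did not pass the test, and their sign depended on the window. ESRRB motifs were present in 14.1% of GATA6-only Early windows (12.8 to 15.6, n = 2278), 2.38 points above the windows 3 kb away (SE 0.919, adjusted p = 0.0254), and 2.24 points above Late regions (SE 0.631, adjusted p = 0.00270, linear model). The difference from Transient regions was -3.61 points (n = 2278 and 8937, SE 0.930, adjusted p = 0.00139). Among the regions closed at d0 (n = 1770) it was -1.70 points and no longer passed (adjusted p = 0.159).

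Most GATA6-only Early regions lay in chromatin that was closed before Gata6 was induced. By the ATAC-seq class at d0, 1770 regions (77.7%, 75.9 to 79.4) were closed, 449 (19.7%) moderate and 59 (2.59%, 2.01 to 3.33) accessible. The closed share was 5.69 points higher than in Early regions with SOX17 (SE 1.31, adjusted p = 5.54e-04) and 21.6 points higher than in Transient regions (SE 0.882, adjusted p = 4.36e-15; linear model, n = 2278). From Late regions it differed by -6.51 points (n = 2278 and 6414, SE 1.00, adjusted p = 5.89e-06). With log2 width as a covariate, the difference from Early regions with SOX17 was 3.73 points and that from Late regions -3.15 points. When moderate regions were counted with the closed ones, the difference from Transient regions was 2.06 points, the differences from Early regions with SOX17 and from Late regions were 0.21 and 0.90 points, and neither passed the test (adjusted p = 0.789 and 0.118, n = 2278).

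The histone state of these regions in ES cells was most often facultative heterochromatin (634 regions, 27.8%) or the state named naive (583, 25.6%), followed by primed enhancer (307, 13.5%), poised enhancer (298, 13.1%), constitutive heterochromatin (226, 9.92%), promoter (133, 5.84%) and active enhancer (97, 4.26%). The naive share (n = 2278) was 7.34 points above Late (SE 1.17, adjusted p = 8.92e-06) and 13.8 points above Transient regions (SE 1.52, adjusted p = 5.03e-08). It was not shown to differ from that of Early regions with SOX17, 24.3% (1.25 points, 95% interval -2.10 to 4.61), a difference that was 3.86 points and passed with log2 width as a covariate (adjusted p = 0.0365, n = 2278) and was -0.82 points among closed regions. The heterochromatin share, 37.8% (n = 2278), differed by -16 points from Late (SE 1.28, adjusted p = 2.98e-10) and by 7.58 points from Transient regions (SE 1.28, adjusted p = 1.72e-05). The enhancer share, 30.8% (n = 2278), differed by 7.68 points from Late (SE 0.936, adjusted p = 2.20e-07) and by -19.4 points from Transient regions (SE 1.13, adjusted p = 1.46e-12). From Early regions with SOX17, the class differed by -6.57 points in enhancer states (SE 1.56, adjusted p = 6.82e-04) and by 5.17 points in heterochromatin states (SE 1.42, adjusted p = 0.00232; linear model, n = 2278 and 2001). Among closed regions alone (n = 1770), these differences from Early regions with SOX17 no longer passed (both adjusted p = 0.0951), and the one in heterochromatin from Transient regions was -1.08 points. With log2 width as a covariate, the differences from Late regions kept their direction but shrank, to 2.87 points for naive, -6.59 for heterochromatin and 4.07 for enhancer states, and heterochromatin against Early regions with SOX17 was -0.31 points. Among closed regions the enhancer difference from Transient regions was -10.7 points, and that from Late regions kept its direction.

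**Figure D4:**
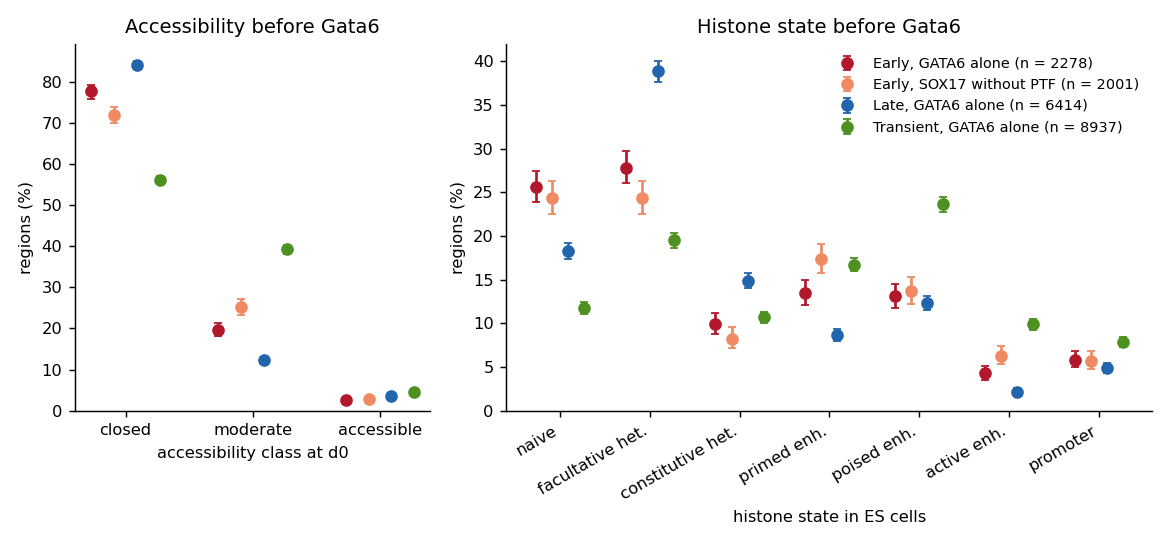
Share of regions (percent) in each accessibility class at d0 (left) and each histone state of ES cells (right) for 4 classes of region, with 95% Wilson intervals. In the closed share on the left, GATA6-only Early regions (77.7%) lie between Late and Early regions with SOX17. On the right, the naive shares of both Early classes, 25.6% and 24.3%, lie above those of Late and Transient regions.

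Within the class, the closed regions carried the denser GATA6 motifs. Closed regions held 2.26 GATA6 motifs per window (SD 1.64), moderate ones 1.42 (SD 0.918) and accessible ones 1.02 (SD 0.754), and the share of windows with a motif fell in the same order, from 95.3% to 88.2% and 78.0%. Closed regions exceeded the other 508 by 0.88 motifs (SE 0.050, adjusted p = 1.27e-12), by 8.25 points in the share with a motif (SE 0.978, adjusted p = 2.70e-07) and by 0.67 in best score (SE 0.162, adjusted p = 0.00110; linear model over the class with n = 1770 closed and 508 other regions, added after the data were seen). The closed regions include all 42 windows with 6 or more motifs, and these differences were not recomputed without them. The gap in best score between closed and other regions was 0.77 in Early regions with SOX17, 0.78 in Late and 0.95 in Transient regions. No difference of these gaps from that of GATA6-only Early regions passed the test (adjusted p from 0.318 to 0.593, n = 2128). OCT4:SOX2 motifs were also more frequent in closed windows (37.8% against 22.8%, n = 1770 and 508, adjusted p = 3.53e-05), as were SOX17 motifs (30.4% against 20.9%, adjusted p = 0.00125). GC content moved with these values, at 44.0% in closed and 50.9% in the other windows (n = 1770 and 508, adjusted p = 1.27e-12), and its part in the motif differences was not tested.

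The 59 accessible regions of the class were mostly promoters. Of these, 45 had their summit within 1 kb of a transcript start (76.3%, 64.0 to 85.3), the median distance over the 59 was 131 bp, and 46 were in the promoter histone state. Closed regions were at promoters in 6.89% of cases, a difference of -26.6 points from the other regions of the class (SE 1.83, adjusted p = 2.94e-11, linear model, n = 1770 and 508), and their median distance to a start was 11212 bp. Over the class, 292 summits were at promoters (12.8%, 11.5 to 14.3), 80 in exons (3.51%), 1099 in introns (48.2%) and 807 between genes (35.4%). None of the 3 differences in promoter share from the other classes passed the test. Their 95% intervals were -2.68 to 1.83 points against Early regions with SOX17, -0.52 to 2.52 against Late and -1.81 to 0.66 against Transient regions.

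Among the histone states of the class, naive regions had the highest mean number of motifs, a comparison that was not tested. They held 2.73 GATA6 motifs per window (SD 2.28), against 2.16 in facultative heterochromatin, 1.98 in constitutive heterochromatin, 1.71 in primed, 1.60 in poised and 1.31 in active enhancers and 1.22 in the promoter state. Windows with 6 or more motifs made up 6.35% of naive regions, which held 37 of the 42 such windows of the class. The naive mean includes them and was not recomputed without them. The median was 2 motifs in naive, facultative, constitutive and primed enhancer regions alike. Another GATA6 region lay within 10 kb of 36.4% of naive and 71.1% of active enhancer regions. For the class as a whole this share was 50.4%, and the difference from Early regions with SOX17 was -8.16 points (n = 2277 and 2001, SE 1.66, adjusted p = 1.57e-04, linear model, added after the data were seen). From Transient regions it differed by 4.66 points (n = 2277 and 8937, SE 1.28, adjusted p = 0.00223), and from Late regions by -0.57 points, with a 95% interval from -2.98 to 1.85.

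Chromosome X held more of the class than its share of all GATA6 regions. GATA6-only Early regions made up 9.37% of the 1238 regions on X, and between 4.09% and 5.93% of those on each autosome. Early regions with SOX17 had a like share on X, 4.60% of the class against 5.09% (116 regions) for GATA6-only Early regions, where Late regions had 2.65% and Transient regions 1.90%. Since X is a single chromosome and the chromosome is the cluster of the model, no test was made. Of the 116 regions on X, 64 were naive (55.2%, 46.1 to 63.9) and none was in constitutive heterochromatin, whereas 24.0% of those on autosomes were naive (22.3 to 25.9). The only GATA6 region of the table on Y also belonged to the class.

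The response of GATA6 to loss of OCT4 was recorded by the authors 48 h after simultaneous induction and Oct4 knockdown, as a class per region with limits on fold change and false discovery rate. Binding was lowered in 103 GATA6-only Early regions (4.52%, 3.74 to 5.45), raised in 33 (1.45%, 1.03 to 2.03) and unchanged in 2142 (94.0%). Over all 42403 regions 6.25% were lowered and 8.57% raised, so that both shares were under the background. The lowered share (n = 2278) exceeded that of Early regions with SOX17, 2.15%, by 2.37 points (SE 0.736, adjusted p = 0.00553) and that of Late regions, 0.530%, by 3.99 points (SE 0.543, adjusted p = 1.02e-06). The difference from Transient regions was 0.94 points, with an interval from -0.40 to 2.28. The raised share (n = 2278) differed by -13.9 points from the 15.4% of Early regions with SOX17 (SE 0.714, adjusted p = 2.19e-13), by -4.30 points from Late (SE 0.433, adjusted p = 1.38e-08) and by 1.33 points from Transient regions (SE 0.290, adjusted p = 3.33e-04; linear model). Whether the GATA6 signal of a region moves with this class was not tested.

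**Figure D5:**
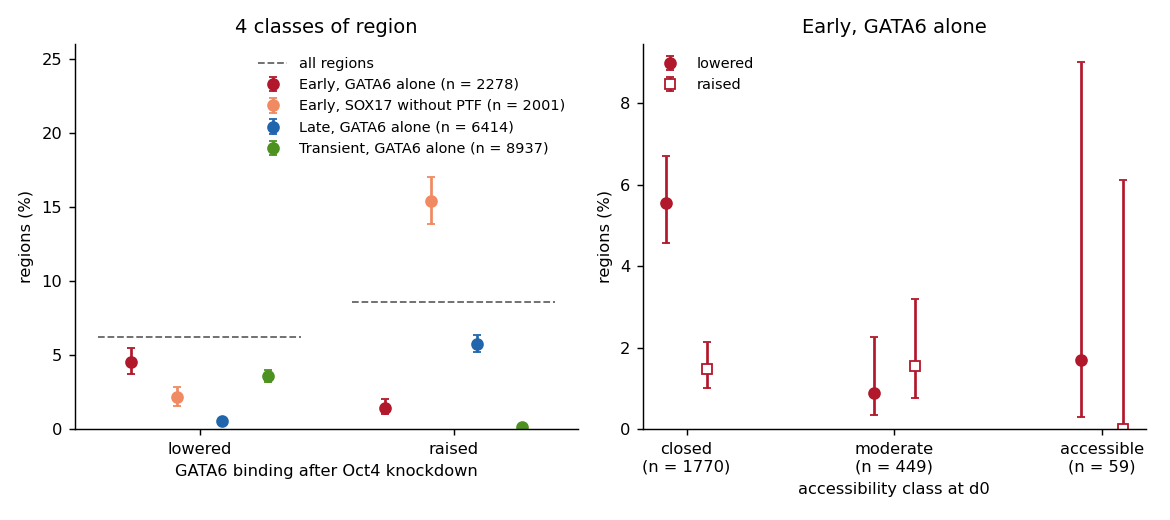
Share of regions (percent) with lowered or raised GATA6 binding after Oct4 knockdown, with 95% Wilson intervals. Left, 4 classes of region with the share over all regions as a dashed line. Right, GATA6-only Early regions by accessibility at d0, where 5.54% of closed regions were lowered.

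The lowered regions of the class were nearly all closed. Of the 103, 98 were closed at d0 (95.1%, against 76.8% of the n = 2142 unchanged regions, a difference of 18.3 points, SE 2.64, adjusted p = 4.09e-06), 41 were in facultative heterochromatin and 39 were naive. Lowered binding was found in 5.54% of closed regions (4.56 to 6.70), in 4 of 449 moderate and in 1 of 59 accessible ones. An OCT4:SOX2 motif was present in 45.6% of lowered windows (36.3 to 55.2) and 34.1% of unchanged ones, and this difference of 11.5 points did not pass the test (SE 6.70, adjusted p = 0.142; linear model, n = 103 and 2142, added after the data were seen). Lowered regions (n = 103) were also wider, by 0.20 on the log2 scale (SE 0.054, adjusted p = 0.00225), and differed by -2.15 points in GC (SE 0.490, adjusted p = 6.70e-04), and the part of either in the result was not tested. Of the 33 raised regions, 17 had a SOX17 motif in the window (51.5%, 35.2 to 67.5), where 28.0% of the unchanged regions had 1, which is given as a description.

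Regions of the class lay near listed genes of PrE, of pluripotency and of FGF signalling, at like shares within 100 kb. Of 37 PrE and extraembryonic endoderm genes, 16 (43.2%) had a GATA6-only Early region within 100 kb of a transcript start and 7 within 10 kb, against 24.2% and 5.18% of all 21951 protein-coding genes. Of 16 pluripotency genes 7 (43.8%) had one within 100 kb and 2 (12.5%) within 10 kb. Of 14 FGF ligands, receptors and targets 7 (50.0%) had one within 100 kb and 2 (14.3%) within 10 kb. Of 5 survival genes 1 had one within 100 kb. Genes were counted, so neighbouring genes can share the same region, as Nanog and Dppa3, Krt8 and Krt18, and Col4a1 and Col4a2 did. These lists were written with earlier results known, no test was made, and a region near a gene is not shown to act on it. The same counts within 100 kb for the 37 PrE genes were 21 (56.8%) for Early regions with SOX17, 25 (67.6%) for Late and 29 (78.4%) for Transient regions. Over all protein-coding genes, the shares for these classes, which differ in size, were 21.9%, 44.9% and 59.9%. Within 10 kb, the counts of PrE genes in these classes were 6, 12 and 9 of 37, against 4.35%, 11.1% and 16.7% of all protein-coding genes.

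The regions within 10 kb of a listed gene differed widely in motif and chromatin. The best motifs of 4 of them are shown as above, with 10 bp to each side, because they sit at an endoderm transcription factor, an epithelial keratin, an endocytic receptor and a pluripotency gene.
Gata4, chr14:63271755-63271767, plus strand: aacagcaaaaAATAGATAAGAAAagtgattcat
Krt8, chr15:102004572-102004584, minus strand: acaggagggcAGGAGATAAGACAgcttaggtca
Lrp2, chr2:69585321-69585333, minus strand: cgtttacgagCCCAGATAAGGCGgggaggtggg
Klf4, chr4:55539004-55539016, minus strand: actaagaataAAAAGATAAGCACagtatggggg
The region at Gata4, a GATA factor of the same lineage, had its summit 51 bp from a transcript start, was closed and in facultative heterochromatin, and held 2 motifs with a best score of 13.9. The moderately accessible region at Krt8, which encodes an intermediate filament protein of epithelia, lay 67 bp from an annotated start, with 1 motif of score 14.5 in a poised enhancer state. The region at Lrp2, which encodes the receptor megalin, lay 668 bp from the start, with 1 motif of score 12.2. The region in a Col4a2 intron, 8926 bp from the nearest Col4a1 start, is also the nearest one to Col4a2, the other basement membrane collagen gene of this divergent locus, and held 2 motifs with a best score of 9.60. The region at Lefty1, a Nodal inhibitor, lay 62 bp from the start and had 1 motif with a score of 6.31. The region at Nid2, which encodes a basement membrane protein, lay 4432 bp away with a score of 6.73 in the summit window and of 14.4 elsewhere in its 872 bp. The region 6525 bp from Klf4, a pluripotency factor, and the one in an Fgfr2 intron, 6415 bp from a start, were closed, in facultative heterochromatin, and lowered after Oct4 knockdown, whereas the other regions nearest to a listed gene were unchanged. The regions at Dppa3 (1026 bp, score 7.26) and Spry1 (62 bp, no motif in the window), an inhibitor of FGF signalling, were in the promoter state. The only survival gene, named after its value was seen, with a region within 100 kb was Bcl2l1, the anti-apoptotic factor BCL-XL, which had 4, the nearest in its intron with 2 motifs and a best score of 14.7. Of the farther regions, 4 with high scores are named after their values were seen. Those 33425 bp from Foxa2, a forkhead factor of endoderm, 18787 bp from Bmp2, a signalling ligand, and 30368 bp from Cited1, a transcriptional coactivator, were closed and had best scores of 13.9, 14.1 and 14.5. The region 20258 bp from Dusp6, a phosphatase that dampens FGF signalling, was moderately accessible and in a poised enhancer state, with a best score of 14.6.

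A small remainder of the class had no GATA6 motif. The authors recorded none anywhere in 55 of the 2278 regions (2.41%), and their mean width of 411 bp was below the 542 bp of the class. Of these 55, 33 were closed (60.0%, 46.8 to 71.9), 10 had their summit at a promoter and 24 held a SOX17 motif in the summit window (43.6%, 31.4 to 56.7). The 2 widest were at the promoters of Dgkh (1308 bp, 350 bp from the start) and Ccdc103 (755 bp, 3 bp from the start), both moderately accessible and in the promoter state. The widest region of the whole class, 3618 bp over Hnrnpu, which encodes an abundant nuclear RNA-binding protein, was closed and naive, had no motif in its summit window and 4 elsewhere, the best with a score of 8.22.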

How the data were processed

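In the study's methods, reads were aligned with bowtie2 to mm10, GATA6 peaks were called with MACS2 from pooled replicates and retained if present in every replicate, and regions were grouped by k-means clustering of GATA6 signal. The accessibility class comes from the authors' ATAC-seq, the histone state from public ES cell data, and the Oct4 knockdown class from their test of GATA6 read numbers. The deposited motif score is the FIMO log-odds score of the best JASPAR match in a region, and the deposited motif number is a count of matches per region. Of 105 columns of the table, 30 were used here. Another 59 columns hold signal whose samples could be matched to none of the 18 libraries, and these were left out, as were 16 columns of motif groups and mean scores.

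The 4 scoring matrices were recovered from the deposited scores and the GRCm38 sequence. A rescan of whole regions returned the presence or absence of each motif as deposited for 99.9% to 99.98% of regions, and the best score within 0.001 for 99.85% to 99.93%. Summit windows reached 100 bp to each side, and windows 3 kb away were used unless they touched a GATA6 region. Genes were from GENCODE M21, promoter meaning within 1 kb of a transcript start. Soft-masked bases are those in lower case in the RefSeq sequence.

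Each measure was fitted across regions by a linear model with SE clustered by chromosome and two-sided p-values on 20 degrees of freedom, tested on simulated data beforehand (Python 3.11.15, statsmodels 0.14.6, scipy 1.17.1). The 13 measures against 3 classes gave 39 tests, adjusted together by the Benjamini-Hochberg procedure at 0.05. The families added after seeing the data (18 tests of classes, 21 within the class and 16 against windows 3 kb away) and the 3 differences of gaps were adjusted separately. Wilson intervals (95%) cover counting error only, and neighbouring regions are not independent. The p-values describe the spread between chromosomes, not between cultures. Members, gene lists and measures were chosen with earlier results of these data known. Regions named were the 6 with the highest score in the window, the nearest to each listed gene within 10 kb, the widest, and the 2 widest without a motif, with the commonest motif sequences; regions on chromosome 18 were not named, and the region with most motifs is not reported here. Alternatives were regions closed at d0 only, log2 width as covariate, a wider window, whole regions, other class limits and promoters within 500 bp.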

Additional observations from a re-analysis of the deposited data

How the results depend on the processing

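Of 165 values recomputed under the alternatives, 140 kept their direction and side of the threshold, and all 39 did so without windows of 6 or more GATA6 motifs, an alternative chosen after seeing the data. Differences are GATA6-only Early minus the named class, in percentage points unless given as scores, and the cause of each change was not tested. Among closed regions alone (n = 1770), the OCT4:SOX2 difference from Late was 3.06 and passed (adjusted p = 0.0461), those in ESRRB motifs from Transient (-1.70), in enhancer states (-3.11) and in heterochromatin (3.88) from Early with SOX17 no longer passed, and signs turned for heterochromatin against Transient (-1.08), naive against Early with SOX17 (-0.82) and promoters against Late (-0.29) and Transient (0.93). With log2 width as covariate, OCT4:SOX2 against Late (2.54) and naive against Early with SOX17 (3.86) passed, and signs turned for heterochromatin (-0.31) and promoters (0.16) against Early with SOX17 and promoters against Late (-0.00611). In wider windows, OCT4:SOX2 against Late was -2.13. Over whole regions, SOX17 motifs turned against Late (3.59) and Transient (3.41), and OCT4:SOX2 (-5.00) and ESRRB (-3.17) turned against Early with SOX17, all 4 past the threshold. There OCT4:SOX2 was 10.5 against Late and passed, and -0.84 against Transient and did not. With moderate regions counted as closed, the closed share differed by 0.21 from Early with SOX17, no longer past the test, and by 0.90 from Late, in the other direction. The difference in the score gap between accessibility classes passed against Transient for whole regions (-0.32, adjusted p = 0.0194, n = 2223), and turned for closed against accessible regions against Early with SOX17 (0.56) and Late (0.26). No paired analysis was possible because no library entered a test and the columns used carry no replicate numbers, so no replicate could be left out either. Depth limits could not be given, since the columns hold no counts of reads.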
